A study of Homo sapiens with 6 samples.

Results

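Cystatins and the cysteine cathepsins they inhibit were examined through 10 genes: the secreted cystatins CST1, CST3, CST4, CST5, CST6 and CST7, the cytosolic cystatin CSTB, and the proteases CTSL, CTSB and CTSC. They were chosen by gene symbol in the platform annotation, with the feature of highest mean to stand for a gene, and since each of the 10 genes had exactly 1 feature that step had nothing to choose. All 10 were measured, among 14884 genes in all. SW620 is a human colorectal cancer line grown from a lymph node metastasis and SW480 a line grown from a primary colorectal tumour. Both were kept as sphere cultures in a serum-free medium with growth factors added, and neither carried a stated genetic change or treatment. The arrays were meant to show how the tumour-initiating cells that such cultures enrich differ between the lines. RNA from each line was hybridised to 3 arrays, which the submitters call technical replicates, so p-values here measure the spread between such arrays and not between separate cultures. No adherent culture or sorted fraction was among them.

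Cysteine cathepsins are papain-like proteases that work mainly in the acidic lysosome, where they break down proteins, and that tumour cells can also release to cut matrix and adhesion proteins. Cystatins block them by wedging into the active site cleft, tightly but reversibly. The secreted, or type 2, cystatins carry a signal peptide and act outside the cell or in the secretory and endosomal route, whereas the stefins, to which cystatin B belongs, stay in the cytosol.

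Expression values, log2 as deposited and made with RMA, ran from 1.99 to 13.9. Array medians lay between 4.04 and 4.07, and arrays correlated across features with r from 0.988 to 0.992 within a line and from 0.963 to 0.965 between lines. The median standard deviation of a gene was 0.105 in SW620 and 0.0955 in SW480, and for the 10 genes it ran from 0.0149 to 0.26. Arrays give relative levels only. A level is therefore compared between lines for the same feature and never between genes, and the number of arrays limits the precision. In bulk RNA, fewer cells with a transcript and less transcript per cell cannot be told apart.

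In SW620 spheroids 7 of the 10 genes were lower, 1 was higher and 2 did not pass limma's test at an adjusted p below 0.05. Over all 14884 genes, 35.6% passed that test in either direction and 19.5% were lower. CST5 fell most, 13.6-fold, followed by CST1 (3.96-fold), CTSL (3.47-fold) and CST7 (3.01-fold), and these 4 passed the test with at least a 2-fold difference, as did 6.07% of all genes (3.76% lower). CTSC was higher, by 1.84-fold. The arrays of the lines did not overlap for 8 of the 10 genes, against 45.7% of all genes, and for 7 of them SW620 was lower, against 23.7%. The median difference was -0.54 over the 10 genes and 0.0132 over all genes. The genes were proposed with this contrast known, so these counts describe them and carry no weight as evidence about the family.

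**Figure D1:**
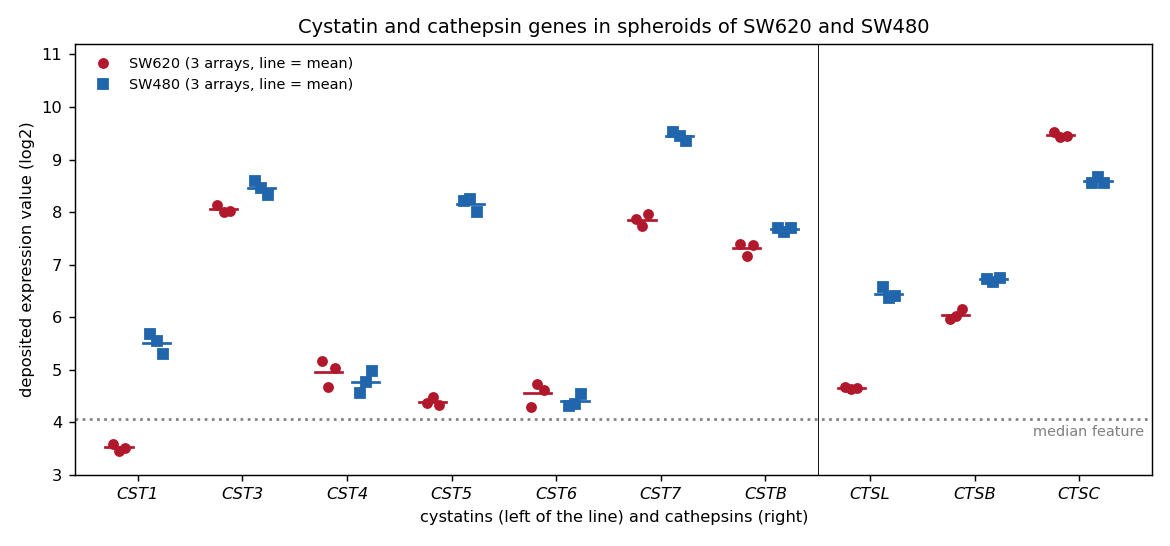
Deposited log2 expression value (y axis) of each cystatin and cathepsin gene (x axis) on the 3 SW620 arrays (circles) and the 3 SW480 arrays (squares), with short lines for the means and a dotted line at the median feature of the table (4.06). The arrays of the lines do not overlap for 8 of the genes and overlap for CST4 and CST6; CTSC is the gene whose SW620 arrays lie above.

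Among the secreted cystatins, CST5 showed the largest difference. It encodes cystatin D, a salivary and tear inhibitor of cathepsins S, H and L, and in human colon cancer cells it is known as a gene switched on by the vitamin D receptor. Its feature (16917969) read 4.37, 4.48 and 4.32 on the SW620 arrays, against 8.22, 8.25 and 8.0 on the SW480 arrays. Every SW620 array lay just above the median feature (4.06) and every SW480 array well above it. The mean was 4.39 ± 0.0793 in SW620 and 8.15 ± 0.136 in SW480 (SD, n = 3 each), a difference of -3.76 on the log2 scale (standard error 0.0933, limma adjusted p = 9.63e-12).

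CST1 encodes cystatin SN, a salivary cystatin also known to be produced by gastrointestinal tumours. Its feature (16917955) read 3.58, 3.46 and 3.52 in SW620, against 5.68, 5.54 and 5.29 in SW480. The lines did not overlap, and the SW620 mean of 3.52 lay below the 25th percentile feature (3.53), so its size rests on a level near the floor of the arrays. The difference was -1.98 (standard error 0.102, adjusted p = 7.12e-09).

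CST7 encodes cystatin F, an inhibitor best known from lymphoid and myeloid cells, where it is carried to lysosomes and, once processed, restrains cathepsin C. Its feature (16912130) read 7.88, 7.73 and 7.97 in SW620, against 9.53, 9.46 and 9.35 in SW480, both far above the median feature. It differed by -1.59 (standard error 0.0918, adjusted p = 2.20e-08). Because CST7 is a leukocyte gene elsewhere, markers of leukocytes were read beside it. Of 14 listed, 7 were measured, and CD2, NKG7, GNLY, CD14 and TYROBP had means between 3.21 and 3.92 in SW620 and between 3.31 and 3.97 in SW480, below the median feature in both. The other two lay above it and differed in opposite directions. LAPTM5, a lysosomal membrane protein of blood cells, averaged 5.84 in SW620 and 6.25 in SW480 (difference -0.41, adjusted p = 0.00132), lower in SW620 as CST7 was. CD68, a lysosomal glycoprotein of macrophages, averaged 6.35 in SW620 and 5.92 in SW480 (difference 0.43, adjusted p = 0.00112). The summed log2 values of the 7 markers ran from 30.1 to 30.8 over the SW620 arrays and from 30.2 to 31.1 over the SW480 arrays, a sum in which the opposite differences of CD68 and LAPTM5 cancel. The part of leukocyte signal in the CST7 difference was not tested.

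CST3 and CSTB, the widely expressed inhibitors, changed little in size. CST3 encodes cystatin C, the main extracellular inhibitor of cysteine cathepsins in body fluids. Its feature (16917939) read 8.14, 8.01 and 8.01 in SW620, against 8.59, 8.45 and 8.33 in SW480, and differed by -0.40, or 1.32-fold (standard error 0.0919, adjusted p = 0.00367). CSTB, the cytosolic stefin whose loss causes a progressive myoclonic epilepsy in humans, read 7.40, 7.17 and 7.37 in SW620, against 7.71, 7.63 and 7.70 in SW480 (feature 16926253). It differed by -0.37, or 1.29-fold (standard error 0.0893, adjusted p = 0.00569). In both genes all SW620 arrays lay below all SW480 arrays, with a gap small beside those of CST5, CST1 and CST7.

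CST4 and CST6 did not pass the test. CST4, which encodes the salivary cystatin S, read 5.18, 4.67 and 5.03 in SW620, against 4.55, 4.76 and 4.97 in SW480 (feature 16917949). It differed by 0.20 with a 95% confidence interval from -0.0916 to 0.49 (adjusted p = 0.29). CST6, which encodes cystatin E/M, an inhibitor of legumain and of cathepsins L and V, read 4.29, 4.73 and 4.62 in SW620, against 4.30, 4.35 and 4.55 in SW480 (feature 16727232). Its difference was 0.15, with an interval from -0.10 to 0.40 (adjusted p = 0.372). The arrays of the lines overlapped for both genes, and the intervals leave room for a rise larger than the fall measured for CSTB.

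Of the proteases, CTSL and CTSB were lower in SW620 and CTSC was higher. CTSL encodes cathepsin L, a lysosomal endopeptidase. Its feature (17086540) read 4.67, 4.64 and 4.66 in SW620, the tightest group among the 10 genes, against 6.57, 6.36 and 6.41 in SW480. It differed by -1.79 (standard error 0.086, adjusted p = 3.52e-09). CTSB encodes cathepsin B, which acts as an endopeptidase and trims dipeptides from the carboxyl end. Its feature (17074673) read 5.97, 6.03 and 6.16 in SW620, against 6.73, 6.68 and 6.74 in SW480, and differed by -0.67, or 1.59-fold (standard error 0.0851, adjusted p = 3.86e-05). The lines did not overlap for either gene.

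CTSC encodes cathepsin C, or dipeptidyl peptidase I, which removes dipeptides from the amino end and is known for activating the serine proteases of leukocyte granules. Its feature (16743111) read 9.53, 9.44 and 9.45 in SW620, against 8.55, 8.66 and 8.56 in SW480. All SW620 arrays lay above all SW480 arrays, by a difference of 0.88 (standard error 0.0823, adjusted p = 2.15e-06). CTSC and its inhibitor CST7 thus differed in opposite directions, 0.88 and -1.59. Of 10 granule proteases that cathepsin C activates, 5 were measured, 0 passed limma's test at an adjusted p or at an unadjusted p below 0.05, and their means ran from 3.40 to 3.97 in SW620 and from 3.33 to 3.90 in SW480, below the median feature. TPSAB1, the mast cell tryptase with the smallest p of these, differed by -0.19 (adjusted p = 0.305).

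The RefSeq promoter table (GRCh38.p14) held 4 of the 10 genes, CST5, CST3, CTSL and CTSC, and all 4 start regions are shown, so that the letters before genes with different values can be compared. Each window is 300 bases, with 250 before the gene's start and 50 from it on, 5′ to 3′ on the gene's strand. They lie at chr20:23879699-23879998 (minus strand, CST5), chr20:23637906-23638205 (minus strand, CST3), chr9:87725869-87726168 (plus strand, CTSL) and chr11:88337687-88337986 (minus strand, CTSC). Capitals mark matches, on either strand, to the GC box GGGCGG and to CCAAT, and no match overlaps another.
CST5: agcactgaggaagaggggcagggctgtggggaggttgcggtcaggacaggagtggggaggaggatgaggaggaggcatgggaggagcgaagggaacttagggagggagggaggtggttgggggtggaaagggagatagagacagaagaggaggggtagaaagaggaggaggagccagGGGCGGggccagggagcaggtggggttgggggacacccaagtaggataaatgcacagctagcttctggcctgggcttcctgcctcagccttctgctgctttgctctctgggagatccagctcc
CST3: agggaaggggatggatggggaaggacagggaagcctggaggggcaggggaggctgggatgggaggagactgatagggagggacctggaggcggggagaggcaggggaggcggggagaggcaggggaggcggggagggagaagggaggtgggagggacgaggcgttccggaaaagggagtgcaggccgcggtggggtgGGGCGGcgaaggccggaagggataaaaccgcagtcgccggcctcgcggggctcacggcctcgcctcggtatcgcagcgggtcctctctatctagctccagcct
CTSL: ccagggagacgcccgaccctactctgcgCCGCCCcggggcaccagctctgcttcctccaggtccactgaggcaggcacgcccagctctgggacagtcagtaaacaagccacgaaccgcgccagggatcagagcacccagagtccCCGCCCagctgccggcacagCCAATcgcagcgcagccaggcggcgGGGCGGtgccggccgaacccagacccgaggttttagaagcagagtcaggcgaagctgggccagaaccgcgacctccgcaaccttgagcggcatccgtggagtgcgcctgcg
CTSC: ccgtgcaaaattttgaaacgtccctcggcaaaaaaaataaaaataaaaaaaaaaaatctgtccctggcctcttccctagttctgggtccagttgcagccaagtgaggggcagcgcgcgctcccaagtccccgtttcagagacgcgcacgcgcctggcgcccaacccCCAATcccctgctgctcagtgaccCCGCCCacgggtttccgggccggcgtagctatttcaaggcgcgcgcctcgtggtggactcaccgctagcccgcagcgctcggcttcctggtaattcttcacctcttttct

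The GC box was found in all 4 windows and in 45% of the 35116 windows of the table. Counting from the start, CTSL held 3 of them, at -222, -106 and -61, and CST5, CST3 and CTSC held 1 each, at -73, -53 and -60. CCAAT was found in the windows of CTSL and CTSC, at -86 and -84, and in 34.6% of all windows. The TATA box TATAAA (11.5% of all windows), CACGTG, the core of the element bound by the lysosomal regulator TFEB (7.26%), and the nuclear receptor core motif AGGTCA (13.8%) had no match in any of the 4. The CST5 window had 3 CpG dinucleotides and a GC content of 62.0%, against 21 and 69.7% for CST3, 27 and 69.0% for CTSL, and 25 and 58.0% for CTSC, where the median window had 14 and 58.7%. A match to these letters is a description of the window and shows no bound site.

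Of the 10 genes, 5 lie on chromosome 20 in or near the cystatin cluster, and within it the differences were uneven from gene to gene. In chromosomal order CST9, CST3, CST4, CST1, CST2 and CST5 follow each other among the measured genes, with differences of -0.60, -0.40, 0.20, -1.98, 0.0513 and -3.76. CST9, a cystatin first known from testis, read lower in SW620 (4.29 ± 0.11) than in SW480 (4.88 ± 0.0779; SD, n = 3 each; adjusted p = 0.000153). CSTL1, CST11, CST8, CST13P and CST9L at the start of the cluster had differences from -0.17 to 0.0955, none called. Between CST5 and CST7, GGTLC1 and LINC01721 did not pass and SYNDIG1 differed by 0.23 at a level below the median feature. Cystatins SN, SA and S, encoded by CST1, CST2 and CST4, are closely related in sequence, and whether their features share signal was not tested; CST2 differed by 0.0513 (adjusted p = 0.72) where CST1 differed by -1.98.

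**Figure D2:**
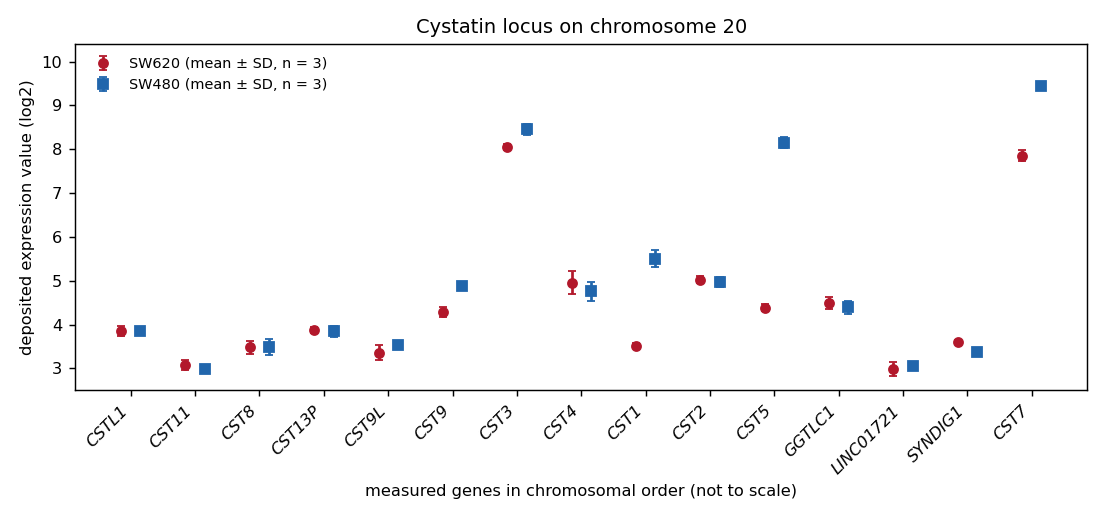
Mean log2 expression value with its standard deviation (y axis, n = 3 arrays a line) for the measured genes of the chromosome 20 cystatin cluster in chromosomal order (x axis, distances not to scale), SW620 as circles and SW480 as squares. CST5, CST1 and CST7 separate widely between the lines, while CST2, CST4 and the genes at the left end lie close together.

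On chromosome 20 as a whole, 20.2% of 416 measured genes were lower in SW620, against 19.5% of all genes. Among the 5 measured genes on either side of each of the 10, 64 distinct genes that are not themselves among the 10 were counted, and 4 were higher and 12 lower in SW620 (25% called, against 35.6% of all genes). The higher calls depended on single arrays: 1 was left without SW480 replicate 2, and 2 were left without SW620 replicate 1, SW620 replicate 2 or SW480 replicate 3. None of these 64 passed with a difference as large as 2-fold. Beside CTSL, the pseudogenes CTSL3P and CTSLP8 differed by 0.0498 and 0.0933 and lay below the median feature. Beside CTSC, TMEM135, named here after its values were seen, read 7.30 in SW620 and 6.39 in SW480, a difference of 0.90.

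The rest of the cystatin superfamily differed little. Of 11 further genes, all measured, limma called CST9 lower and left 10 uncalled, with a median difference of -0.0143. They include CSTA, the other human stefin, CST2, and the plasma proteins KNG1, AHSG, FETUB and HRG, which carry cystatin domains. The means of these 11 genes ran from 3.08 to 5.03 in SW620 and from 2.98 to 4.97 in SW480, and 3 of them lay above the median feature over the 6 arrays.

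Of 12 other cysteine cathepsins and relatives, all measured, 6 fell and 0 rose in SW620, where 19.5% of all genes fell and 16.0% rose, and the median difference was -0.30. CTSZ, a lysosomal carboxypeptidase, read 7.20 ± 0.0832 in SW620 and 8.75 ± 0.0058 in SW480 (SD, n = 3 each), 2.94-fold lower in SW620 (difference -1.55, standard error 0.0824, adjusted p = 8.99e-09). CTSV, a protease closely related to CTSL, was 2.64-fold lower (5.16 ± 0.30 in SW620 and 6.56 ± 0.0539 in SW480, adjusted p = 1.63e-06). Whether the features of CTSV and CTSL share signal was not tested. LGMN, the asparaginyl endopeptidase legumain that processes several cathepsins, was 1.72-fold lower (adjusted p = 1.85e-05), and TINAGL1, a secreted relative without protease activity, was 1.40-fold lower (adjusted p = 0.000895). BLMH and CTSH were the others that fell, and CTSF, CTSK, CTSO, CTSS, CTSW and TINAG did not pass. The pseudogene CTSLP2, named here after its values were seen, had 2 features with nearly the same values, which differed by -0.32 each.

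The cathepsins of other catalytic classes did not pass the test. All 5 of CTSD, CTSE, CTSA, CTSG and NAPSA were measured, and limma called 0 of them at an adjusted p below 0.05 and 1, NAPSA, at an unadjusted p below 0.05. CTSD, the abundant aspartic protease of lysosomes, read 8.67, 8.5 and 8.56 in SW620 and 8.78, 8.69 and 8.68 in SW480. CTSA, the carboxypeptidase that protects lysosomal galactosidase and sialidase, read 7.55, 7.40 and 7.69 in SW620 and 7.65, 7.63 and 7.53 in SW480. NAPSA, an aspartic protease of lung and kidney, had the smallest p and differed by -0.19 (adjusted p = 0.115) at a level below the 25th percentile feature.

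**Figure D3:**
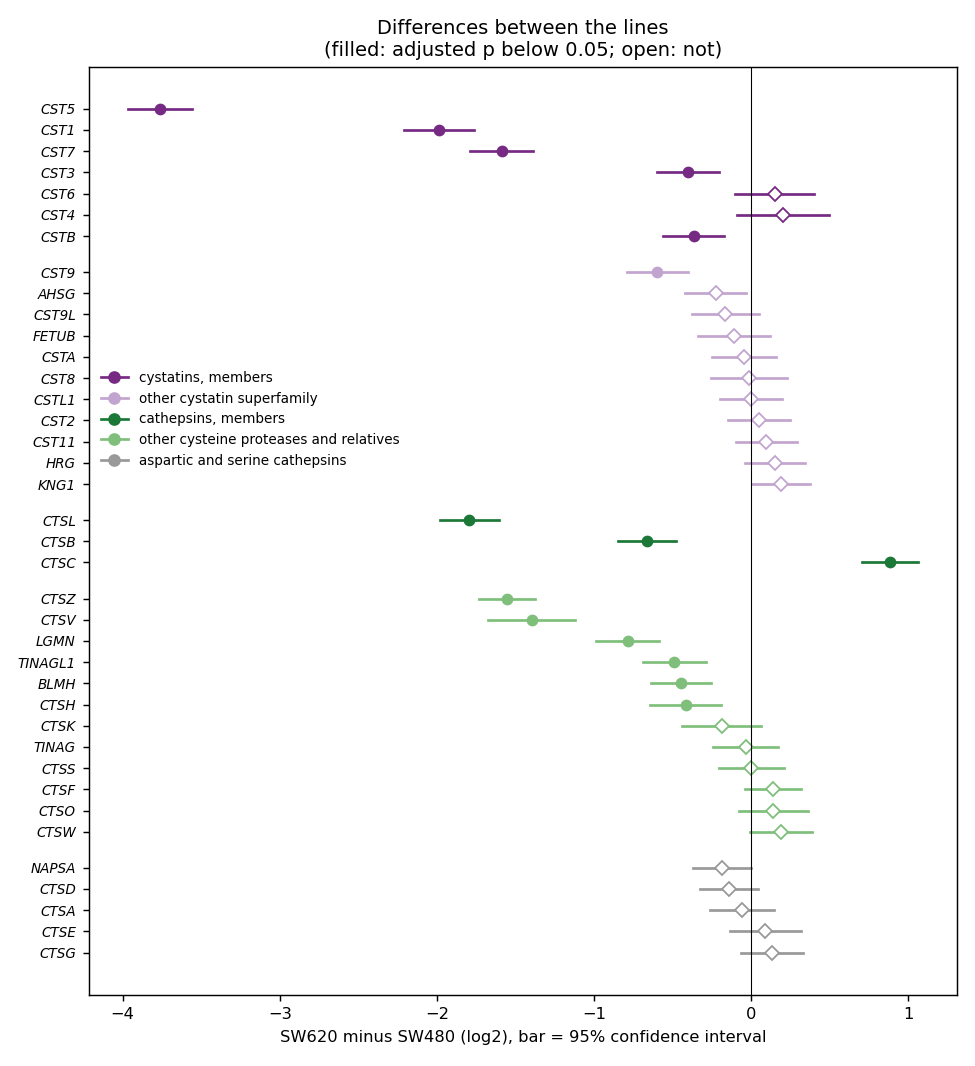
Difference between SW620 and SW480 (x axis, log2, SW620 minus SW480) with its 95% confidence interval from the limma fit for each measured cystatin and cathepsin gene (y axis), grouped by family; filled circles passed at an adjusted p below 0.05 and open diamonds did not. CST5, CST1, CTSL, CST7, CTSZ and CTSV lie farthest to the left and CTSC is the gene to the right of 0 that passed.

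Of 15 listed genes of lysosomal enzyme sorting, those that recycle the sorting receptors included, 6 were measured. In SW620 4 of these rose and 0 fell, where 16.0% of all genes rose and 19.5% fell. The median difference was 0.27. M6PR and NAGPA did not pass (limma adjusted p = 0.587 and 0.241). VPS35 rose 1.41-fold (10.47 ± 0.0716 in SW620 and 9.97 ± 0.0176 in SW480, adjusted p = 0.000318) and VPS26A 1.35-fold (adjusted p = 0.0022); both are core subunits of retromer, which returns sorting receptors from endosomes. IGF2R, the large mannose 6-phosphate receptor that delivers cathepsins, rose 1.23-fold (adjusted p = 0.0209), and VPS29, the retromer subunit that completes the core, 1.18-fold (adjusted p = 0.0359). These last calls are fragile. Without SW620 replicate 3, SW480 replicate 1 or SW480 replicate 2, the adjusted p of IGF2R was 0.0793, 0.0632 and 0.0614, and that of VPS29 exceeded 0.05 without any of the 6 arrays (0.054 to 0.112).

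Of 33 listed lysosomal hydrolases other than cathepsins, 14 were measured, and 3 rose, 4 fell and 7 did not pass (median difference -0.0805). Over all genes, 16.0% rose and 19.5% fell. ARSB, a sulfatase of glycosaminoglycan breakdown, rose 2.28-fold (6.18 ± 0.0579 in SW620 and 4.99 ± 0.142 in SW480, adjusted p = 3.87e-07), and the sialidase NEU1 rose 1.32-fold. The peptidases DPP7 and SCPEP1 were 2.23-fold and 1.60-fold lower in SW620 (adjusted p = 7.59e-07 and 0.000245).

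Of 22 listed membrane proteins and activators of the lysosome, 12 were measured, and 2 rose, 7 fell and 3 did not pass, beside 16.0% of all genes that rose and 19.5% that fell. The median difference was -0.29. LAMP1, a major glycoprotein of the lysosomal membrane, rose 1.56-fold (8.70 ± 0.0168 in SW620 and 8.06 ± 0.0354 in SW480, adjusted p = 2.66e-05). LITAF, LAMP3 and LAPTM4A, membrane proteins of late endosomes and lysosomes, fell by 0.94, 0.94 and 0.58 on the log2 scale. The LAMP3 mean was 3.24 in SW620, below the 25th percentile feature.

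Of 17 listed transcription factors and nutrient-sensing regulators of the lysosome, 14 were measured, and 3 rose and 5 fell (median difference -0.20). Over all genes, 16.0% rose and 19.5% fell. RRAGD, a Rag GTPase that recruits the kinase mTORC1 to lysosomes, read 3.56, 3.85 and 3.47 in SW620, against 6.61, 6.69 and 6.92 in SW480. Its difference of -3.12 (standard error 0.115, adjusted p = 2.99e-10) rests on SW620 levels below the median feature. The related GTPase RRAGB rose 1.74-fold, FNIP2, a partner of folliculin in the same signalling, rose 1.72-fold, and LAMTOR4, a subunit of the Ragulator scaffold, was 1.67-fold lower. TFEB itself, named here after its values were seen, read 4.28, 4.01 and 3.97 in SW620, against 4.30, 4.53 and 4.30 in SW480. It differed by -0.29 and passed narrowly (limma adjusted p = 0.0457), with an SW620 mean of 4.09 close to the median feature (4.06). Whether the TFEB call holds without single arrays was not examined.

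Of 16 listed extracellular proteins that cathepsins B and L can cut, 4 were measured. TNC, the matrix glycoprotein tenascin C, rose 7.30-fold (10.09 ± 0.194 in SW620 and 7.22 ± 0.0915 in SW480, adjusted p = 2.87e-10). FN1, fibronectin, was 3.67-fold lower in SW620 (5.05 ± 0.115 in SW620 and 6.93 ± 0.0119 in SW480, adjusted p = 2.48e-09), and HSPG2, perlecan, rose 1.38-fold (adjusted p = 0.0019). NID1 did not pass.

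**Figure D4:**
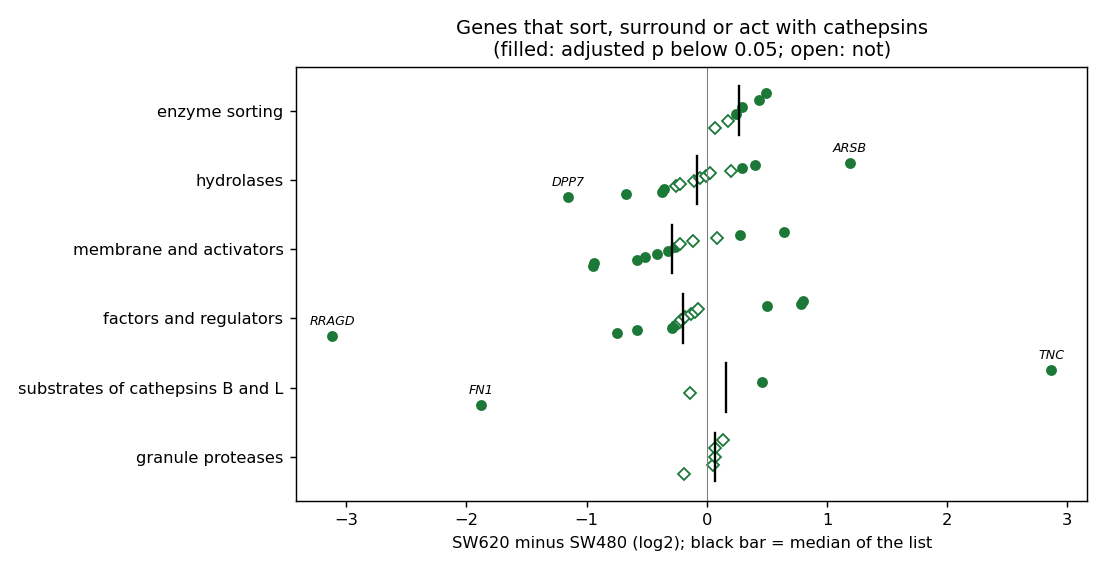
Difference between SW620 and SW480 (x axis, log2, SW620 minus SW480) of the measured genes of 6 lists (y axis); filled circles passed at an adjusted p below 0.05, open diamonds did not, and black bars are list medians. The enzyme sorting genes lie at or right of 0, RRAGD and FN1 lie far to the left and TNC far to the right.

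Over all these further lists together, 82 of 162 genes were measured, and 14 rose and 24 fell in SW620, which is 46.3% called against 35.6% of all genes. Without SW480 replicate 2, 9 rose and 24 fell. The serpins that inhibit cathepsins (8 genes) and the vacuolar proton pump (14 genes) count among the 162 listed genes but were not analysed here.

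The genes whose pattern over the 6 arrays was most like that of CST5, by Euclidean distance after centring each gene, were the pseudogene SIMC1P1 (distance 0.223), EPB41L4A, which encodes a FERM-domain protein (0.246), and the growth factor gene FGF20 (0.273). They read 3.80, 3.17 and 4.19 in SW620 and 7.42, 6.81 and 7.93 in SW480. For CST1 they were CA6, a secreted carbonic anhydrase of saliva (0.177), the ephrin receptor EPHB4 (0.219) and NPNT, the matrix protein nephronectin (0.222). With 2 groups of arrays this likeness reflects mainly the size of the difference between the lines.

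Markers of the labelled tissue and of other cells were read on the same arrays. Of 12 colon epithelial markers, 10 were measured, and EPCAM, the epithelial adhesion molecule, read 9.55, 9.55 and 9.72 in SW620 and 9.81, 9.67 and 9.67 in SW480. In this list 4 rose and 1 fell in SW620, beside 16.0% of all genes that rose and 19.5% that fell. CEACAM5 rose 5.37-fold, VIL1 1.54-fold and KRT19 1.42-fold, KRT8 also rose, and CDX2 was 2.90-fold lower. The fold size of CEACAM5 rests on an SW480 mean of 3.93, below the median feature. KRT20, CDX1 and GPA33, all markers of differentiated colon, had means between 3.80 and 4.47 in SW620 and between 3.84 and 4.48 in SW480. Of 4 measured endothelial markers 0 passed at an adjusted or an unadjusted p below 0.05 in limma (ENG, with the smallest p, adjusted p = 0.249). Of 3 measured fibroblast markers LUM, the proteoglycan lumican, rose 9.34-fold while DCN and THY1 did not pass, and of 7 leukocyte markers CD68 rose 1.35-fold and LAPTM5 was 1.33-fold lower. Most of the difference in the summed log2 values of the 3 fibroblast markers was that of LUM: the sums ran from 15.5 to 15.7 in SW620 and from 11.8 to 12.6 in SW480, while DCN and THY1 differed by 0.18 and -0.03. The part of these markers in the differences above was not tested.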

How the data were processed

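Total RNA from sphere cultures was hybridised to Affymetrix whole-transcript arrays, 3 for SW620 and 3 for SW480. The deposited log2 values came from the authors' own processing; the submitters' processing notes name Partek and RMA and no version, and the base of the logarithm was taken from the range of the values. Of 53616 features, 16098 had 1 gene symbol and 37518 none here. Genes without a named feature here count as not measured, though the array may hold them. For 779 genes with several features the one with the highest mean was used, which gave 14884 genes. No filter on low values was applied, no pseudocount was needed, and the values were not normalized again.

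SW620 was compared with SW480 in limma 3.58.1 (R 4.3.3, lmFit and eBayes) over all genes, with Benjamini-Hochberg adjustment and a threshold of 0.05; adjusted p-values in the text come from this fit, and differences are SW620 minus SW480. Errors are standard deviations over 3 arrays. The arrays give no read depth, so their number limits the precision. On simulated data with 14884 genes, the fit recovered 30, 48, 50 and 50 of 50 genes changed by 0.5, 1, 2 and 3 on the log2 scale, with 7 false among 185 calls. The simulated noise was normal and independent, with the spread of each gene between technical arrays. Only 50 genes were changed at each size, whereas 5293 genes were called in the real data. The rates of recovery and of false calls therefore do not carry over to the comparison of the lines.

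The 10 genes and the gene lists were chosen with earlier results of these data known. Besides the 10, the text names up to 4 genes a list with the largest difference among those that passed, or the gene with the smallest p where none did, and the 3 genes most like CST5 and CST1 in pattern; others are described with their list or said to be named after their values were seen. Chromosomes, gene order and promoters are from RefSeq (GRCh38.p14), matched by gene ID and symbol. The sources used here do not give the build behind the array annotation. Alternatives covered normalization, filters, variance settings, the choice of feature, thresholds, the replicate number and leaving out each array.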

Additional observations from a re-analysis of the deposited data

How the results depend on the processing

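The count of 8 called genes among the 10 cystatins and cathepsins did not change under another normalization or variance setting, at a threshold of 0.01, or without any of the 6 arrays. It was also the same under the filters and feature choices, but these could not alter the differences of the 10 genes. Each had exactly 1 feature, and the filters used the mean over the 6 arrays. CST1 passed the filter at the median feature (4.06) through its SW480 mean of 5.50, with 3.52 in SW620. A minimum of 2-fold changed the counts most: 904 genes passed in all, 4 of the 10, 7 of the other cystatin, cathepsin and lysosome genes, 3 marker genes and 0 of the chromosomal neighbours, of which limma called 16 at the adjusted threshold alone. Over refits without 1 array, 4590 to 4984 genes passed in all, 30 to 34 of the other pathway genes (9 to 12 higher and 20 to 24 lower) and 13 to 17 of the neighbours (1 to 3 higher and 11 to 14 lower). Cyclic loess, the filter at the median feature and the replicate block each left 2 higher neighbours. Among the 10 genes, the differences ran from -3.84 to -3.72 for CST5, -2.09 to -1.90 for CST1, -1.84 to -1.73 for CTSL and 0.83 to 0.92 for CTSC over all alternatives. CST4 and CST6 did not pass under any (lowest adjusted p 0.0564 and 0.0661). The median of all genes moved between -0.0117 and 0.0402 across scalings. VPS29 also missed the threshold after repeated quantile normalization (0.0555), cyclic loess (0.0611) and the replicate block (0.054).

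The arrays share replicate numbers, but deviations of same-numbered arrays correlated with r from -0.0234 to -0.00889, so no pairing by number was seen. These are deviations of values already normalized, and whether same-numbered arrays were prepared together was not tested. With the replicate number as a block, 5215 genes passed in all, 8 of the 10, 35 of the other pathway genes, 8 markers and 14 neighbours. Technical replicates leave the spread between cultures unmeasured, and levels below the median feature are taken here, as a rough guide, to be near the background of the arrays.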
